A study of Caenorhabditis elegans with 52 samples.

Results

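The 37 genes described here are cuticle collagens of the nematode Caenorhabditis elegans, taken by identifier from the 45461 gene identifiers of the deposited count tables, and all 37 were found there. They comprise 5 furrow collagens (dpy-2, dpy-3, dpy-7, dpy-8 and dpy-10), 3 annulus collagens (dpy-4, dpy-5 and dpy-13), 3 collagens known from roller or squat mutants (rol-1, rol-6 and sqt-1), sqt-3 and dpy-17, the 2 strut collagens bli-1 and bli-2, 6 col- genes that were abundant in every library, and 16 further col- genes. RNA of whole worms was measured by poly(A) RNA-seq in 52 libraries of 3 genotypes, grown to young adulthood from synchronized first-stage larvae on plates and then moved to liquid medium with bacteria. PL is the double mutant puf-8; lip-1, with 24 libraries, PF is the double mutant puf-8 fbf-1, with 10 libraries, and N2 is the wild type, with 18 libraries. No source used here names the alleles. PL worms were sampled untreated and after 1, 2, 4, 6 and 18 h in 100 uM U0126, an inhibitor of the kinase MEK, or in its solvent DMSO. PF worms were sampled untreated and at 1, 2, 4 and 6 h in both agents, and N2 worms untreated and at 1, 2, 6 and 18 h in both agents. Untreated PL, PF and N2 worms had 2 libraries each, every PF group in an agent had 1 library, PL at 1 h had 3 libraries per agent, and each other group had 2. The labels do not say whether replicates came from separate cultures, so the spread among libraries of a group may be technical. A p-value here reflects that spread pooled over all groups of a fit. In the 3 comparisons of PF worms in an agent, fitted with hour as a factor, it reflects the spread left around hour and agent or genotype.

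The cuticle of a nematode is an extracellular coat that the epidermis makes anew before every molt, and collagens are its main protein. Each collagen is transcribed in a wave within the molting cycle, with furrow collagens coming earlier in a cycle than annulus collagens, and a wave falls away once the new cuticle is laid down. Furrow collagens such as DPY-7 and DPY-10 form the circumferential furrows of the surface, and annulus collagens such as DPY-13 form the ridges between them. BLI-1 and BLI-2 build the struts that join the layers of the adult cuticle. Some collagens belong to a stage, and col-19 is the usual marker of the adult epidermis. Chains are trimmed by proteases (BLI-4, DPY-31), hydroxylated (DPY-18, PHY-2, PDI-2) and cross-linked by an oxidase and a peroxidase (BLI-3, MLT-7).

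Libraries held between 5370270 and 35120700 counts assigned to genes. Levels are given in CPM, counts scaled to the library size that edgeR's TMM factors give, and differences as log2 fold changes from edgeR's quasi-likelihood test with Benjamini-Hochberg adjustment over all genes tested, called at an adjusted p under 0.05. The ± after a fold change is its standard error, and the ± after a mean is the SD. Of the mutated genes, fbf-1 lay at 0.357 to 3.88 CPM in PF libraries, against 11.3 to 52.7 CPM in N2 libraries. The lip-1 level was 0.359 to 3.72 CPM in PL libraries, against 11.5 to 96.4 CPM in N2 libraries. The puf-8 levels overlapped, with 3.22 to 36.6 CPM in PL, 3.38 to 11.8 CPM in PF and 26.2 to 221 CPM in N2. Libraries stood apart in 2 places. In the library labelled N2 untreated replicate 2, oocyte markers summed to 221 CPM and sperm markers to 2152 CPM, against 5050 and 2.77 CPM in N2 untreated replicate 1. The other place, PL at 1 h, touches the collagens directly and is described below, library by library.

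Levels split the collagens into 2 classes. In every library 6 genes, col-8, col-19, col-20, col-80, col-106 and col-119, lay above 50 CPM, and the lowest single value among them was 99.2 CPM, for col-19 in 1 N2 library at 18 h in U0126. The other 31 genes were each at or below 1.43 CPM in at least 1 library. Per kilobase of exon, the median level over the 52 libraries was 5182 CPM for col-119, 2804 for col-20, 2161 for col-106, 1705 for col-8, 1576 for col-80 and 1480 for col-19, all in CPM per kb. The same median for the highest of the other 31, col-144, was 6.52 CPM per kb. Several of the 31 were at 0 counts in most libraries, such as col-165 in 30 and sqt-1 in 28 of the 52 libraries, and in the shallowest library 3 counts amount to 0.559 CPM, the least level that can be told from 0 there. All 37 genes together took 0.206% to 3.71% of a library's counts. As neighbours on a chromosome, 5 pairs of these genes stand side by side, and col-17/col-20 and bli-1/col-80 each join an abundant gene to a scarce one. Members of this family can be close copies of each other, and no source used here states how shared reads were counted or whether strand was used, so small values beside an abundant relative are uncertain.

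**Figure D1:**
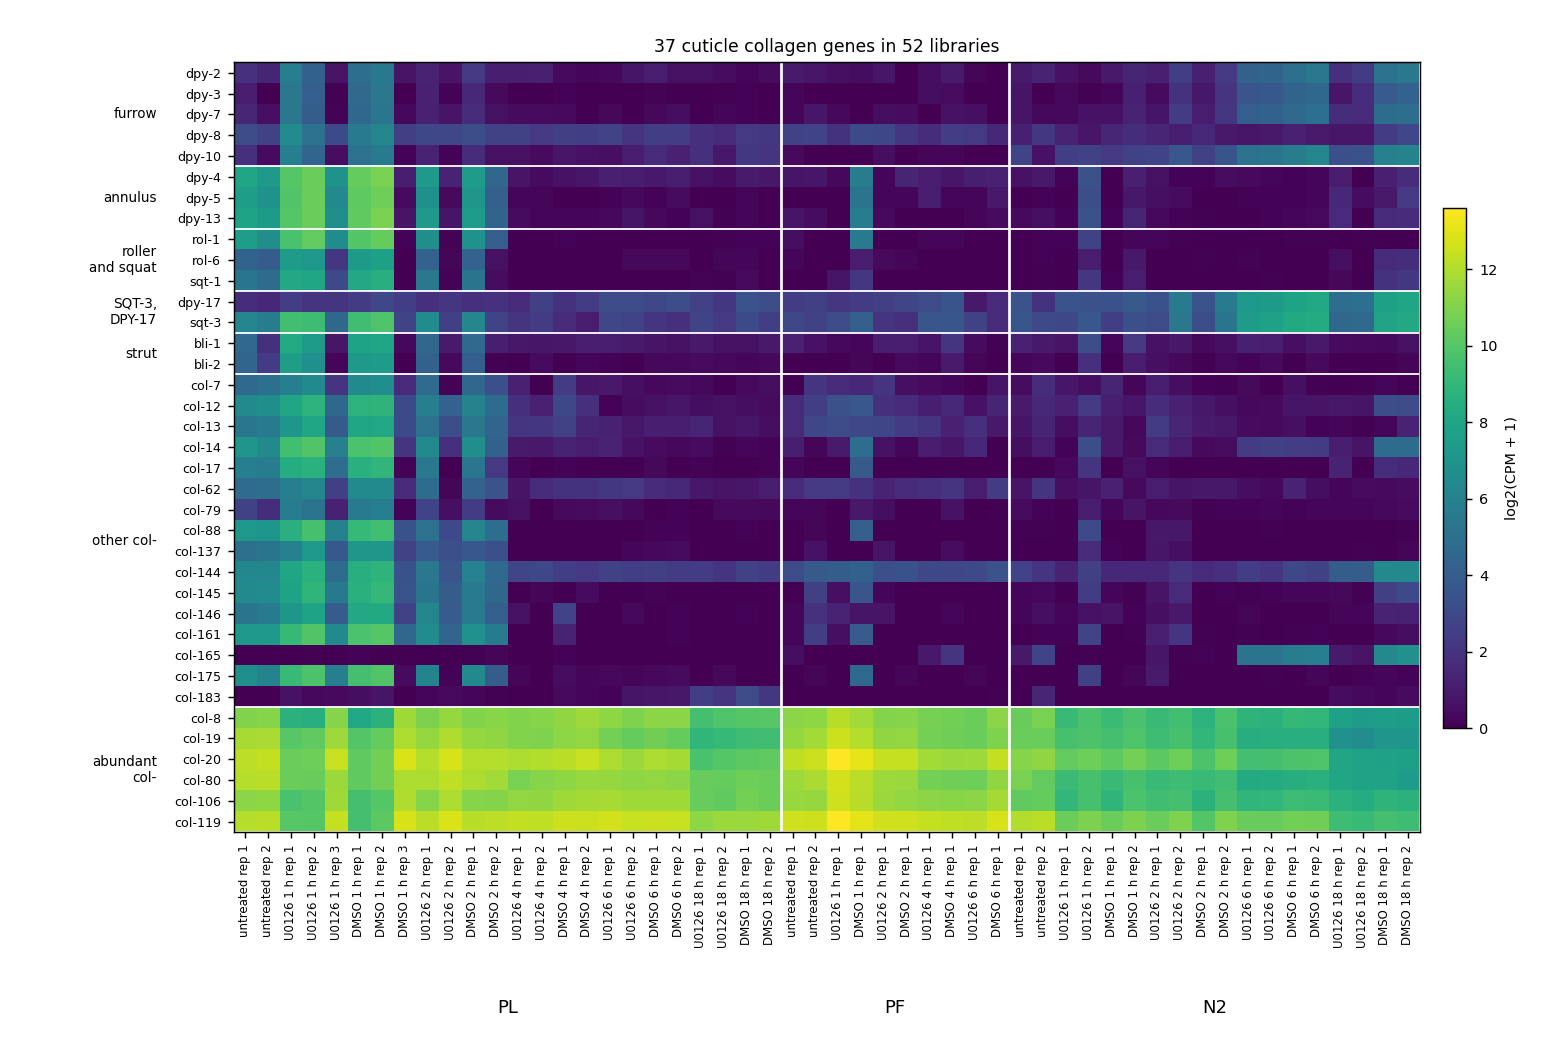
Levels of the 37 collagens in 52 libraries, as log2(CPM + 1), with genes as rows ordered by role and libraries as columns ordered by genotype, agent and hour. The 6 abundant col- genes are bright in every column, while most others are bright in the PL 1 h columns of replicates 1 and 2.

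At 1 h the PL libraries fell apart by replicate number, in both agents. The 31 less abundant collagens summed to 9721 CPM in U0126 replicate 1 and 13309 CPM in U0126 replicate 2, against 892 CPM in U0126 replicate 3. In DMSO the sums were 12094 CPM in replicate 1, 15525 CPM in replicate 2 and 104 CPM in replicate 3. Replicates 1 and 2 thus had the higher sums under either agent, and replicate 3 the lower. For 28 of the 31 genes, all 4 libraries of replicates 1 and 2 lay above both libraries of replicate 3, and for 24 of the 31 they also lay above all 46 libraries outside PL 1 h.

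The annulus collagens and the roller collagen rol-1 reached the highest levels there, with 825 to 1333 CPM of rol-1 in the 4 libraries. The annulus collagen dpy-13 (F30B5.1) had 1035, 1464 and 107 CPM in U0126 replicates 1, 2 and 3, and 1254, 1899 and 0.645 CPM in DMSO replicates 1, 2 and 3. The annulus collagen dpy-4 came to 1035, 1434 and 120 CPM in U0126, and 1351, 1899 and 1.18 CPM in DMSO. In both genes replicate 3 was lowest under each agent. The squat and roller collagen sqt-1 (B0491.2) had 294, 266 and 6.91 CPM in U0126, and 292, 370 and 0 CPM in DMSO. The roller collagen rol-6 (T01B7.7), whose dominant alleles make worms turn about their long axis, had 178, 153 and 3.48 CPM in U0126, and 171, 211 and 0 CPM in DMSO. For both genes replicates 1 and 2 again stood above replicate 3. The strut collagen bli-1 (C09G5.6) had 316, 174 and 0.796 CPM in U0126, and 237, 262 and 0.215 CPM in DMSO. Of the essential collagen gene sqt-3, whose product is needed from the embryo on, there were 723, 675 and 22 CPM in U0126, and 689, 942 and 5.8 CPM in DMSO.

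Furrow collagens were also high in replicates 1 and 2, at a lower level. The furrow collagen dpy-7 (F46C8.6) had 41.7, 15.1 and 0.0994 CPM in U0126 replicates 1, 2 and 3, and 23.5, 39 and 0.215 CPM in DMSO. For dpy-10 (T14B4.7) the values were 58, 20.6 and 0.398 CPM in U0126, and 33, 49 and 0.107 CPM in DMSO. For dpy-10 all 4 high libraries stayed below the N2 maximum of 73 CPM. For dpy-7 2 of them exceeded the N2 maximum of 30.7 CPM and 2 did not. The 4 libraries ranged over 17.4 to 56 CPM for dpy-2 and 15.8 to 41.4 CPM for dpy-3, against N2 maxima of 42.1 and 23.4 CPM, so both genes also straddled the N2 maximum. The remaining furrow collagen, dpy-8, differed, with 34.3 to 92.5 CPM in the 4 libraries against an N2 maximum of 6.44 CPM. Outside PL 1 h no library exceeded 8.79 CPM of dpy-8. The exceptions to the split were col-183, col-165 (F14H12.1) and dpy-17. The dpy-17 gene, whose product is a partner of SQT-3 in the cuticle, had 4.3, 6.37 and 4.84 CPM in DMSO replicates 1, 2 and 3, so replicate 3 lay between the others. For col-165 no PL 1 h library exceeded 0.0955 CPM.

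The abundant genes ran the other way. The 6 of them summed to 6365, 6550 and 22565 CPM in U0126 replicates 1, 2 and 3, and to 5352, 7283 and 29256 CPM in DMSO. The adult collagen col-19 (ZK1193.1) had 1071, 1232 and 3105 CPM in U0126, and 1010, 1330 and 3846 CPM in DMSO, so replicate 3 was highest under each agent. The mean log2(CPM + 1) of 13 molting and matrix genes, which include mlt-10 and noah-1, was 6.42, 5.44 and 2.23 in U0126, and 6.00, 6.24 and 1.92 in DMSO. Intestine markers summed to 5489 to 8849 CPM in the 4 libraries of replicates 1 and 2, against 40610 CPM in U0126 replicate 3 and 45206 CPM in DMSO replicate 3. Muscle markers summed to 10334 to 14131 CPM in replicates 1 and 2, against 6503 and 4867 CPM in replicate 3. Oocyte markers summed to 61.3 to 76 CPM against 175 and 207 CPM, and sperm markers to 336 to 384 CPM against 989 and 1020 CPM. Epidermal markers summed to 957 to 1558 CPM in replicates 1 and 2, a range that holds the 1057 and 1265 CPM of replicate 3, but its 6 genes did not move together. The sum is mostly vab-10, at 567 to 1058 CPM in replicates 1 and 2 against 816 and 1004 CPM in replicate 3. The hedgehog-related gene grd-1 was at 38.1 to 53.2 CPM against 5.17 and 4.62 CPM and the junction gene dlg-1 at 92.5 CPM or more against 33.3 and 37.7 CPM, while the transcription factor gene elt-1 was at 16 to 16.8 CPM against 31.4 and 31.2 CPM. The part of these shifts in the collagen levels was not tested. Since the libraries were told apart by their values, the split is given as a description with no test. In whole-worm RNA, fewer cells of a type and less RNA per cell cannot be told apart.

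**Figure D2:**
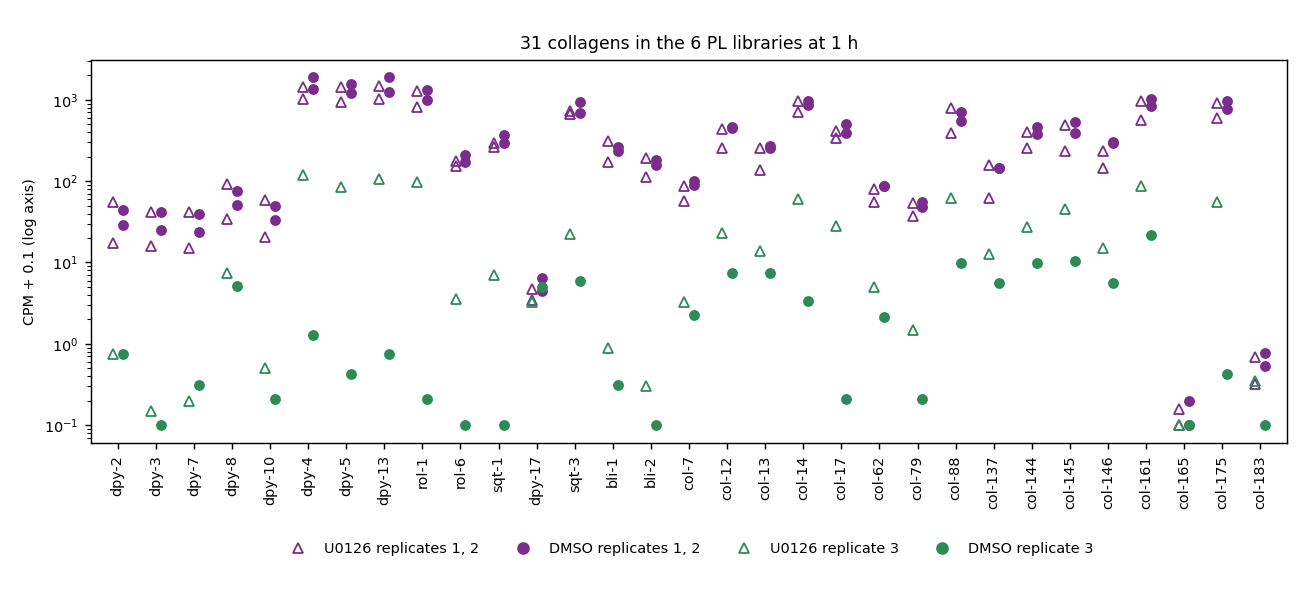
Levels of the 31 less abundant collagens in the 6 PL libraries at 1 h, as CPM + 0.1 on a log axis. Each library is 1 point, coloured by replicate (1 and 2 against 3) and shaped by agent. Replicates 1 and 2 lie above replicate 3 for 28 of the 31 genes, and dpy-17, col-165 and col-183 are the exceptions.

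Outside PL 1 h, the 31 genes had high sums early in PL and late in N2. Their sum in untreated worms was 2106 and 1658 CPM in PL, against 43.9 and 40.6 CPM in N2. At 2 h in DMSO it was 1577 and 347 CPM in PL, against 35.4 and 113 CPM in N2. By 6 h in DMSO N2 had the higher sums, with 31.5 and 31.2 CPM in PL against 739 and 840 CPM in N2. At 18 h in DMSO it was 43.4 and 32.2 CPM in PL, against 818 and 984 CPM in N2. All PL libraries from 4 h on, in either agent, lay between 20.8 and 47.4 CPM. The genes behind the high sums were mostly not the same. In untreated PL 22 and 20 of the 31 genes had at least 10 CPM, against 7 in each N2 library at 6 h in DMSO. The 7 were col-165, sqt-3, dpy-17, dpy-2, dpy-3, dpy-7 and dpy-10. Of these, only sqt-3 also reached 10 CPM in untreated PL. The highest of them in N2 were sqt-3, with 303 and 330 CPM, and dpy-17, with 238 and 272 CPM. Over their groups in PL, 26 of the 31 genes had their highest mean at 1 h in DMSO. In N2, 13 of the 31 had their highest mean at 18 h in DMSO and 11 at 1 h in U0126. Those 11 rest on 1 library, replicate 2, which had 1.06 to 9.36 CPM of each, against at most 0.637 CPM in replicate 1. In PF the highest sum was 371 CPM, in the single library at 1 h in DMSO, and the other PF libraries lay between 26 and 64.2 CPM.

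Among the N2 groups, all 6 abundant genes had their highest mean in untreated worms. At 18 h in DMSO their sum was 9089 and 9197 CPM in PL, against 2013 and 1817 CPM in N2. In untreated worms it was 21794 and 23373 CPM in PL and 22581 and 24527 CPM in PF, against 12326 and 13185 CPM in N2. In PF all 6 were highest at 1 h in U0126, a single library, where they summed to 48248 CPM.

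**Figure D3:**
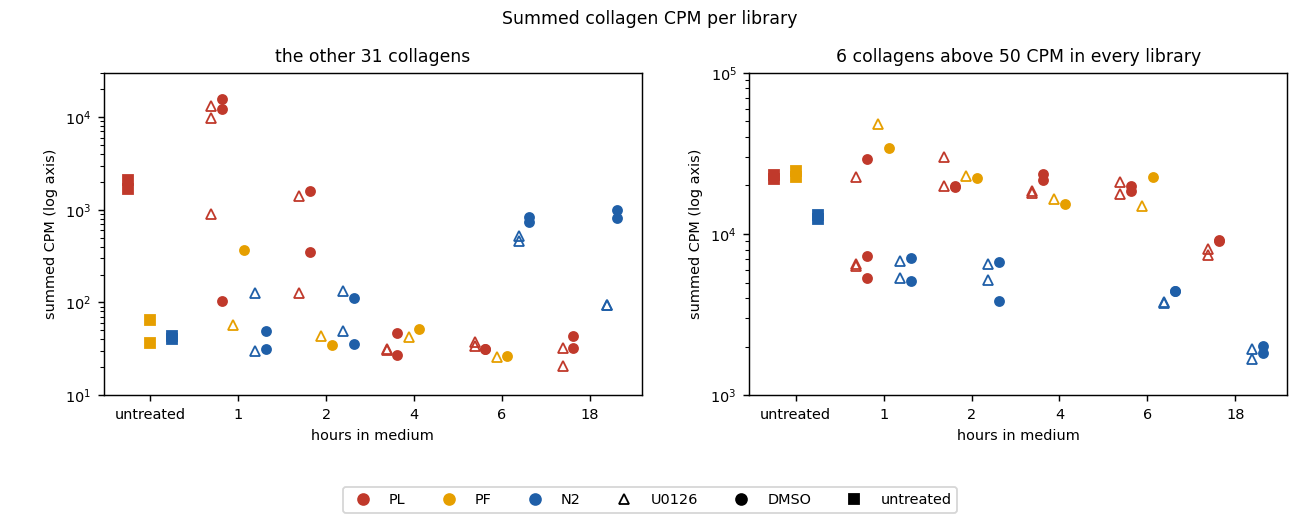
Summed CPM of the 31 less abundant collagens and of the 6 abundant ones against hour, on log axes, with 1 point per library, for PL, PF and N2 in U0126, DMSO or untreated. The sum of the 31 is at most 47.4 CPM in PL from 4 h on, while N2 in DMSO has 739 CPM or more at 6 and 18 h.

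In untreated worms, most less abundant collagens were higher in PL than in N2. Of the 37 genes 21 were higher, or 56.8%, against a background of 12.4% of all 16462 genes tested, and 3 were lower, or 8.11%, against a background of 25.6%. The median log2 fold change of the 37 was 4.15, against -0.21 for all genes. By role, 13 of 16 less abundant col- genes, all 3 annulus collagens and all 3 roller and squat collagens were higher, and 2 of the 6 abundant genes were. None of the 5 furrow or 2 strut collagens passed edgeR's test. At an unadjusted p under 0.05 there were 0 furrow collagens and 1 strut collagen, and DESeq2 called the same numbers. The 3 lower genes were col-165, col-183 and dpy-17. The call of col-183 rests on 30 counts in N2 untreated replicate 2, the library that stood apart, since there were 1 and 0 counts in PL and none in N2 untreated replicate 1. The genotypes overlapped for col-183, and without that N2 library both genotypes were under 3 counts and it was not called (edgeR adjusted p = 0.526).

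The largest rises by the naming rule were genes with no count in N2. The collagen col-175 had 110 and 67.9 CPM in PL, against 0 counts in both N2 libraries, so it was at least 981-fold higher, taking 3 counts over the group as the least detectable (adjusted p = 0.00492, edgeR). On the same basis col-17, with 57 and 51.5 CPM in PL, was at least 566-fold higher, and col-137, with 31 and 37.6 CPM in PL, at least 341-fold higher. In all 3 genes the groups did not overlap. The annulus collagen dpy-13 had 240 and 167 CPM in PL, against 0.252 and 0.458 CPM in N2, a log2 fold change of 9.12 ± 2.45 (edgeR adjusted p = 0.00462). Both PL libraries were far above both N2 libraries. The squat collagen sqt-1 had 38.3 and 27 CPM in PL, against 0 and 0.0573 CPM in N2. Since N2 had 1 count in all, the ratio of sqt-1 counts per library total was 1064, with an exact 95% counting interval of 191 to 42031 (edgeR adjusted p = 0.0375). For rol-6, with 19.7 and 14.3 CPM in PL against 0 and 0.115 CPM in N2, the ratio was 276, with an interval of 76.1 to 2281 on 2 N2 counts (edgeR adjusted p = 0.0273). Such intervals cover counting error only.

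Furrow and strut collagens and the 3 lower genes differed from this. For dpy-7 there were 1.8 and 0.488 CPM in PL, against 0.692 and 0.229 CPM in N2, so the groups overlapped (log2 fold change 1.36 ± 1.52, edgeR adjusted p = 0.546). Likewise dpy-10 had 2.64 and 0.305 CPM in PL, against 5.98 and 0.573 CPM in N2 (log2 fold change -1.08 ± 1.39, edgeR adjusted p = 0.606). The strut collagen bli-1 had 23.7 and 2.56 CPM in PL, against 1.38 and 0.916 CPM in N2, with no overlap but no call (3.52 ± 1.86 on the log2 scale, edgeR adjusted p = 0.144). The SQT-3 partner gene dpy-17 was lower, with 2.45 and 2.01 CPM in PL against 10.1 and 2.92 CPM in N2 (log2 fold change -1.53 ± 0.58, edgeR adjusted p = 0.0389). PL had no count of col-165, which had 0.881 and 5.78 CPM in N2, so it was at least 60.5-fold lower in PL (edgeR adjusted p = 0.000288). The adult marker gene, col-19, had 3597 and 3832 CPM in PL, against 1428 and 1459 CPM in N2, and rose by 1.36 ± 0.43 on the log2 scale (edgeR adjusted p = 0.0133).

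The count of 24 called genes became 15 without N2 untreated replicate 1 and 21 without N2 untreated replicate 2, the library that stood apart. The calls of col-175, col-137, dpy-13 and col-165 held without any 1 of the 4 libraries. Those of sqt-1, rol-6, dpy-17 and col-19 were each lost without 2 or more of them, and that of col-17 without N2 untreated replicate 1. Tissue markers moved with this comparison. Muscle markers summed to 12216 to 13739 CPM in PL and 2296 to 8937 CPM in N2. Intestine markers summed to 33269 to 36127 CPM in PL and 867 to 30017 CPM in N2. Markers of the epidermis, which makes the cuticle, summed to 1569 to 1896 CPM in PL and 772 to 1224 CPM in N2. Of these lists 1 of 4, 3 of 4 and 2 of 6 genes were called higher. The epidermal gene lin-26 was called lower (log2 fold change -2.17 ± 0.42, edgeR adjusted p = 0.000266). Oocyte markers summed to 207 to 226 CPM in PL and 221 to 5050 CPM in N2, with all 6 called lower, and sperm markers to 834 to 907 CPM in PL and 2.77 to 2152 CPM in N2, with 0 of 6 called. Their part in the collagen differences was not tested.

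At 2 h in DMSO the same direction held for more genes. Of the 37 genes 28 were higher in PL, or 75.7%, against a background of 34.6%, and 1 was lower, or 2.70%, against a background of 31.5%. The median log2 fold change was 5.08 for the 37 and 0.46 for all genes. The higher genes were 14 of 16 less abundant col- genes, all 3 annulus collagens, all 3 roller and squat collagens, all 6 abundant genes, the furrow collagen dpy-8 and the strut collagen bli-1.

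PL replicate 1 had the higher values of many of these genes. The annulus collagen dpy-5 had 148 and 17.1 CPM in PL, against 0 counts in N2, so it was at least 937-fold higher (edgeR adjusted p = 0.00425). The roller collagen rol-1 had 127 and 16.4 CPM in PL, against 0 counts in N2, and was at least 809-fold higher (edgeR adjusted p = 0.00517). For col-175, with 87.3 and 15.4 CPM in PL and 0 counts in N2, the bound was 578-fold. In each gene PL replicate 1 was the higher, and neither overlapped N2. The annulus collagen dpy-13 had 178 and 19.8 CPM in PL, against 0.0542 and 0 CPM in N2, a ratio of 3367 with an interval of 604 to 133011 on 1 N2 count (edgeR adjusted p = 0.00192). In rol-6, with 18.4 and 0.52 CPM in PL against 0.0542 and 0 CPM in N2, the ratio was 325, with an interval of 57.9 to 12864 on 1 N2 count (edgeR adjusted p = 0.0223). For the squat collagen sqt-1 there were 37 and 0.39 CPM in PL, against 0 counts in N2, so it was at least 214-fold higher (edgeR adjusted p = 0.0276). The strut collagen bli-1 had 24 and 1.17 CPM in PL, against 0.217 and 0.462 CPM in N2, a log2 fold change of 5.19 ± 2.11 (edgeR adjusted p = 0.0338). For rol-6, sqt-1 and bli-1 the PL replicate 1 value carried the difference, and all 3 calls were lost without that library.

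The adult marker col-19 rose by 2.03 ± 0.44 on the log2 scale, with 2769 and 2569 CPM in PL against 505 and 799 CPM in N2 (edgeR adjusted p = 0.000278). Here both PL libraries exceeded both N2 libraries more than 3-fold. The only lower gene was dpy-17, with 2.59 and 2.79 CPM in PL against 10.1 and 47.1 CPM in N2 (log2 fold change -3.41 ± 0.61, edgeR adjusted p = 4.04e-05). The furrow collagen dpy-7 had 2.36 and 0.52 CPM in PL, against 1.08 and 3.41 CPM in N2 (log2 fold change -0.63 ± 1.38, edgeR adjusted p = 0.701), and dpy-10 had 2.36 and 0.52 CPM against 5.53 and 10.4 CPM (log2 fold change -2.45 ± 1.43, edgeR adjusted p = 0.133). The genotypes overlapped for dpy-7 and not for dpy-10. For col-165 both groups were at or under 3 counts, so no fold is given. Without N2 DMSO 2 h replicate 1 the count of called genes was 19 instead of 29, and the calls of dpy-5, rol-1, col-175, dpy-13, col-19 and dpy-17 held without any 1 of the 4 libraries.

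By 6 h in DMSO the pattern was divided by role. Of the 37 genes 7 were higher in PL and 7 lower, each 18.9%, against backgrounds of 26.5% higher and 33.9% lower over all genes, so neither share stood above its background. The median log2 fold change was 0.48 for the 37 and -0.08 for all genes. All 6 abundant genes and col-183 were higher, while 4 of 5 furrow collagens, sqt-3, dpy-17 and col-165 were lower. None of the annulus, roller, squat or strut collagens was called by edgeR, with 0 at an unadjusted p under 0.05 and 0 by DESeq2.

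All 7 lower genes had at least 19.6 CPM in both N2 libraries. The furrow collagen dpy-7 had 0.218 and 0.435 CPM in PL, against 24.2 and 30.7 CPM in N2, and fell by 6.36 on the log2 scale (SE 1.78, edgeR adjusted p = 0.00352). Its partner in the furrow dpy-10 had 2.07 and 1.41 CPM in PL, against 53.1 and 73 CPM in N2 (log2 fold change -5.17 ± 1.60, edgeR adjusted p = 0.00727). Both PL values lay far below both N2 values in each gene. The furrow collagen dpy-3 had 0.109 and 0 CPM in PL, against 19.6 and 23.4 CPM in N2, a ratio of 483 in favour of N2 with an interval of 86.4 to 19093 on 1 PL count (edgeR adjusted p = 0.00919). PL had no count of col-165, against 54.1 and 54.7 CPM in N2, so it was at least 407-fold lower (edgeR adjusted p = 1.08e-05). For sqt-3 there were 3.27 and 2.72 CPM in PL, against 303 and 330 CPM in N2 (log2 fold change -6.72 ± 1.71, edgeR adjusted p = 0.0016). None of these 3 genes overlapped between the genotypes.

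Among the abundant genes, col-80 had 2661 and 2426 CPM in PL, against 353 and 390 CPM in N2, the largest rise there (log2 fold change 2.77 ± 0.37, edgeR adjusted p = 2.43e-06). The rise of col-106 was 2.39 ± 0.56, with 3291 and 3271 CPM in PL against 636 and 620 CPM in N2 (edgeR adjusted p = 0.000812). For col-8, 2462 and 2381 CPM in PL stood against 529 and 520 CPM in N2 (2.21 ± 0.74, edgeR adjusted p = 0.0124). In all 3 genes PL replicates lay close together and above N2. For col-19 there were 1636 and 1331 CPM in PL, against 372 and 379 CPM in N2 (1.98 ± 0.44, edgeR adjusted p = 0.000422). The other named genes had low counts and no call. Of dpy-13 there were 0.218 and 0.109 CPM in PL, against 0.158 and 0.249 CPM in N2, and bli-1 had 0.654 and 0.543 CPM in PL, against 0.474 and 0.897 CPM in N2, both with overlap. There was no count of sqt-1 in either genotype, and rol-6 had 0.218 and 0.217 CPM in PL against 0 counts in N2. Calls of dpy-7, sqt-3, col-165, col-80, col-106 and col-19 held without any 1 library, dpy-10 lost its call without PL DMSO 6 h replicate 2, dpy-3 without either PL library and col-8 without either N2 library.

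At 18 h in DMSO the abundant collagens were again higher in PL and more of the others lower. The test called 7 of 37 genes higher, or 18.9%, against a background of 20.3%, and 11 lower, or 29.7%, against a background of 22.9%. The median log2 fold change was -3.78, or -1.05 with genes at 0 counts set to their bound, and -0.18 over all genes. With RLE scaling the share of higher calls among all called genes was 59.2% instead of 47.0%, the median of all genes moved to 0.00, and the same numbers of collagens, 7 and 11, were called. All 6 abundant genes and col-183 were higher. The lower genes were 4 of 5 furrow collagens, sqt-3, dpy-17 and 5 less abundant col- genes.

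The furrow collagen dpy-7 had 0.0856 and 0 CPM in PL, against 26.8 and 29.3 CPM in N2, a ratio of 917 in favour of N2 with an interval of 164 to 36235 on 1 PL count (edgeR adjusted p = 0.00217). PL had no count of col-165, against 83.6 and 117 CPM in N2, so it was at least 1121-fold lower (edgeR adjusted p = 1.67e-05). The gene col-145 likewise had no count in PL, against 5.01 and 7 CPM in N2, and was at least 67.0-fold lower (edgeR adjusted p = 0.0151). The groups of these genes did not overlap. For dpy-10 there were 3.59 and 3.14 CPM in PL, against 60.8 and 66.8 CPM in N2 (log2 fold change -4.24 ± 1.5, edgeR adjusted p = 0.0257). The highest rise, of col-183, was 4.46 ± 1.20, with 7.53 and 3.55 CPM in PL against 0.143 and 0.324 CPM in N2 (edgeR adjusted p = 0.00678). Here PL was above N2 in a gene that is at 0 counts in 26 of the 52 libraries. The abundant col-80 had 1526 and 1454 CPM in PL, against 225 and 179 CPM in N2 (2.88 ± 0.38, edgeR adjusted p = 5.93e-06). For col-8 the levels were 1039 and 1080 CPM in PL, against 189 and 182 CPM in N2 (2.51 ± 0.75, edgeR adjusted p = 0.00921). The adult marker col-19 had 664 and 681 CPM in PL, against 138 and 142 CPM in N2 (2.26 ± 0.44, edgeR adjusted p = 0.0004).

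The annulus, roller and squat collagens were low in both genotypes at 18 h, and edgeR called 0 of them, with 0 at an unadjusted p under 0.05 and 0 by DESeq2. There were 0.171 and 0 CPM of dpy-13 in PL, against 2.15 and 2.32 CPM in N2 (edgeR adjusted p = 0.239). For rol-6 the levels were 0.171 and 0 CPM in PL, against 2.07 and 2.46 CPM in N2 (edgeR adjusted p = 0.216). In sqt-1 there were 0.257 and 0 CPM in PL, against 2.93 and 3.57 CPM in N2 (edgeR adjusted p = 0.273). N2 was above PL in all 3 genes, with no overlap. The strut collagen bli-1 overlapped, with 0.513 and 0.912 CPM in PL against 0.215 and 0.51 CPM in N2 (edgeR adjusted p = 0.788). The count of 18 called genes was 12 when PL DMSO 18 h replicate 1 was left out and 11 when replicate 2 of that group was. Calls of dpy-7, col-165, col-80 and col-19 held without any 1 library, dpy-10 lost its call without any 1 of the 4, col-145 without 3 of them, col-8 without either N2 library and col-183 without N2 DMSO 18 h replicate 1.

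**Figure D4:**
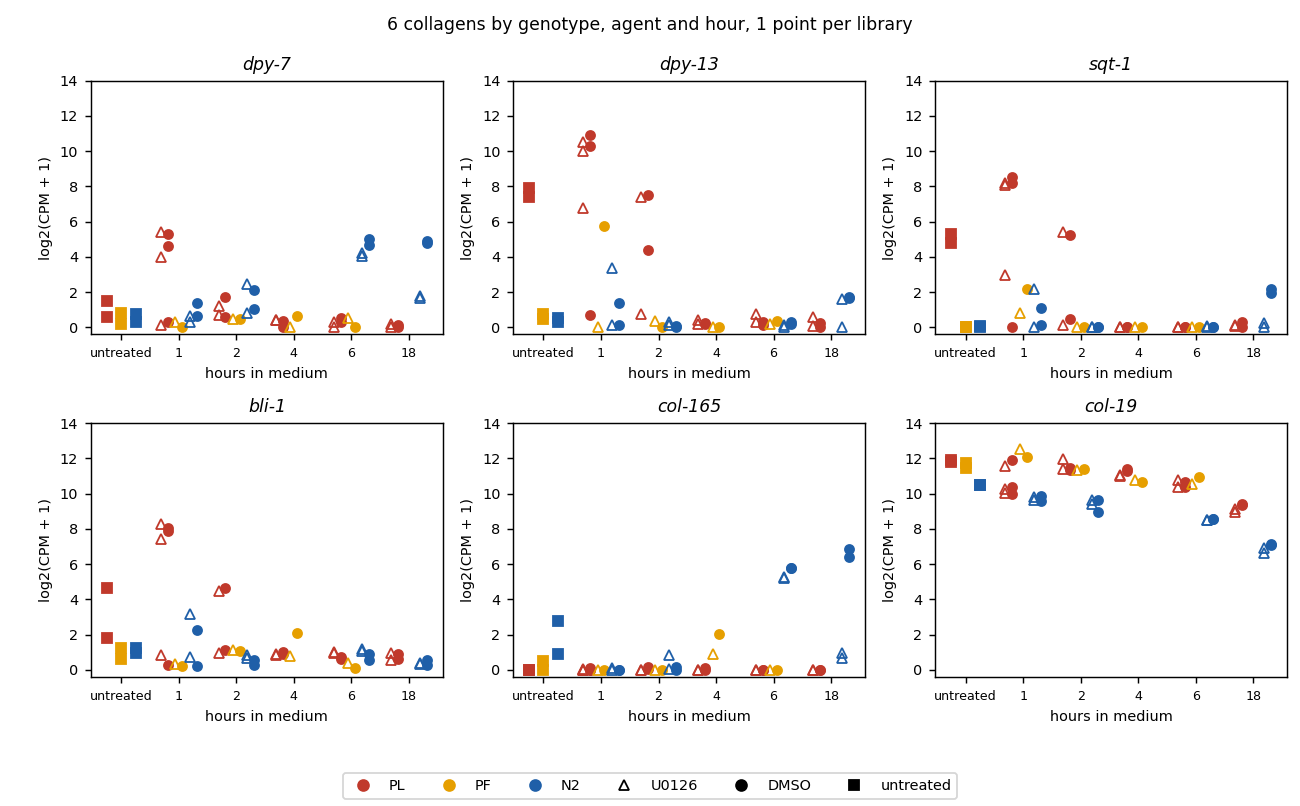
Levels of dpy-7, dpy-13, sqt-1, bli-1, col-165 and col-19 against hour as log2(CPM + 1), with 1 point per library, for PL, PF and N2 in U0126, DMSO or untreated. In N2 in DMSO, dpy-7 and col-165 are high at 6 and 18 h, while in PL dpy-13, sqt-1 and bli-1 are high in some libraries up to 2 h and low from 4 h on.

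Tissue markers differed between PL and N2 at each of these hours as well. At 2, 6 and 18 h sperm markers summed to 1026 to 1185, 593 to 694 and 342 to 438 CPM in PL, against 3.2 to 7.85, 1 to 2.59 and 0.0463 to 0.787 CPM in N2, and all 6 were called higher at each hour. Oocyte markers summed to 256 to 293, 662 to 729 and 1312 to 1703 CPM in PL, against 4292 to 4438, 3512 to 3518 and 2783 to 2892 CPM in N2, with 6, 6 and 1 of 6 called lower. Intestine markers summed to 43029 to 51186, 78861 to 82467 and 100667 to 125288 CPM in PL, against 24554 to 25243, 27097 to 27922 and 22010 to 24362 CPM in N2. Muscle markers summed to 7378 to 7916, 5700 to 6714 and 6040 to 6042 CPM in PL, against 1218 to 3505, 1830 to 2028 and 2583 to 2839 CPM in N2. Epidermal markers, from the tissue that makes the cuticle, summed to 881 to 954, 964 to 1101 and 994 to 1044 CPM in PL, against 446 to 552, 781 to 797 and 883 to 933 CPM in N2, with 3, 1 and 1 of 6 called higher and 1, 2 and 2 called lower. The part of these shifts in the collagen differences was not tested.

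Other genes of the cuticle pathway did not all follow the collagens. Of 11 processing and cross-linking genes, 5, 6, 5 and 2 were higher in PL than in N2 by the same test, in untreated worms and at 2, 6 and 18 h. At 6 h the higher ones included the oxidase gene bli-3 (log2 fold change 1.14 ± 0.24), the peroxidase gene mlt-7 (1.89 ± 0.42) and the protease gene dpy-31 (1.23 ± 0.38). Of 13 molting and matrix genes 9 were lower and 1 higher at 6 h, and 10 lower and 1 higher at 18 h. Earlier, 0 were lower and 2 higher untreated, and 1 lower and 2 higher at 2 h. The fall of noah-1, a matrix gene, was -4.72 ± 1.17 at 6 h, and that of the fibrillin-like gene fbn-1 was -3.75 ± 0.55. Of 6 transcription factor genes that act in the molting cycle, 3 were lower and 1 higher at 6 h. The lower ones were lin-42 and the nuclear receptor genes nhr-23 and nhr-25, and the higher one was elt-3. The log2 fold changes of nhr-23 and nhr-25 were -0.98 ± 0.23 and -2.97 ± 0.67. Of the same 6 genes, 1 was higher and 0 lower untreated, 3 and 1 at 2 h, and 2 and 1 at 18 h. Among 5 cuticlins tested, 4 were lower at 6 h and 3 at 18 h, with 0 higher, and cut-3 was at -10.11 ± 0.85 at 6 h. Untreated, cut-4 was higher and cut-3 lower, and at 2 h 3 cuticlins were higher and 0 lower. Of the 109 other col- genes tested, 67 were higher and 1 lower untreated, 75 and 3 at 2 h, 29 and 9 at 6 h, and 22 and 30 at 18 h. The mean log2(CPM + 1) of the molting list was 3.51 and 2.81 in PL against 2.29 and 1.63 in N2 untreated. At 2 h in DMSO it was 3.45 and 1.94 in PL against 2.53 and 3.54 in N2. It was 1.83 and 1.92 in PL against 5.04 and 5.09 in N2 at 6 h. By 18 h it was 2.00 and 1.91 in PL against 5.0 and 5.23 in N2.

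Between 6 and 2 h in DMSO, 5 collagens were called lower in PL. In N2 2 were called higher, a share near that over all genes. At 6 h relative to 2 h in PL, 5 of 37 genes fell, or 13.5%, against a background of 1.43% lower and 2.03% in either direction. By edgeR 0 were higher, with 1 at an unadjusted p under 0.05 and 0 by DESeq2. The 5 were col-161, col-145, col-146, col-14 and col-12. PL had 0.109 and 0 CPM of col-145 at 6 h, against 47.2 and 21.4 CPM at 2 h, a ratio of 652 in favour of 2 h with an interval of 117 to 25783 on 1 count (edgeR adjusted p = 0.028). The corresponding ratios were 1599 for col-161, with an interval of 287 to 63170, and 639 for col-146, with an interval of 114 to 25268 (edgeR adjusted p = 0.0177 and 0.0369). For col-12 there were 0.545 and 0.76 CPM at 6 h, against 67.1 and 26.6 CPM at 2 h (log2 fold change -6.15 ± 1.35, edgeR adjusted p = 0.0135). The annulus collagen dpy-13, with 0.218 and 0.109 CPM at 6 h against 178 and 19.8 CPM at 2 h, did not pass (edgeR adjusted p = 0.0767). The count of 5 depended on single libraries. It was 0 without PL DMSO 2 h replicate 1 or either 6 h library, 2 without PL DMSO 2 h replicate 2, and 15 in a fit without PL 1 h replicates 1 and 2, which lie far from replicate 3 and enter the spread that all groups share. With RLE scaling higher calls made up 41.1% of all calls instead of 29.6%.

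At 6 h relative to 2 h in N2, 2 genes rose, or 5.41%, against a background of 3.51% higher and 3.92% in either direction. By edgeR 0 were lower, with 1 at an unadjusted p under 0.05 and 0 by DESeq2. The risers were col-165, with 54.1 and 54.7 CPM at 6 h against 0.108 and 0 CPM at 2 h, and dpy-17, with 238 and 272 CPM at 6 h against 10.1 and 47.1 CPM at 2 h. The ratio of col-165 was 1062, with an interval of 294 to 8771 on 2 counts at 2 h (edgeR adjusted p = 0.00037), and the log2 fold change of dpy-17 was 3.16 ± 0.58 (edgeR adjusted p = 0.00244). Both genes were higher in both 6 h libraries than in both 2 h libraries. The furrow collagen dpy-7 had 24.2 and 30.7 CPM at 6 h, against 1.08 and 3.41 CPM at 2 h, without overlap but without a call (3.61 ± 1.44, edgeR adjusted p = 0.203), and dpy-10 missed the threshold too (2.98 ± 1.40, edgeR adjusted p = 0.319). Without N2 DMSO 2 h replicate 1, dpy-17 lost its call and 1 gene, col-165, was called, and the fit without PL 1 h replicates 1 and 2 called 8. Epidermal markers summed to 781 to 797 CPM at 6 h and 446 to 552 CPM at 2 h, with 2 of 6 called higher, and their part was not tested. With RLE scaling higher calls made up 76.1% of all calls instead of 89.6%, and the median of all genes was -0.19 instead of -0.06.

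At 18 h relative to 6 h in DMSO, 1 gene rose in N2, or 2.70%, against a background of 5.01%, and 2 fell, or 5.41%, against a background of 0.844%. The riser, col-144, had 83.4 and 87.9 CPM at 18 h, against 6.53 and 5.33 CPM at 6 h (log2 fold change 3.85 ± 1.04, edgeR adjusted p = 0.0276). The abundant col-20 had 223 and 211 CPM at 18 h, against 896 and 929 CPM at 6 h (-2.07 ± 0.57, edgeR adjusted p = 0.0305), and col-19 had 138 and 142 CPM at 18 h, against 372 and 379 CPM at 6 h (-1.42 ± 0.43, edgeR adjusted p = 0.0479). The replicates of these 3 genes lay close together and the hours did not overlap, yet the count was 0 without any 1 of the 4 libraries, and 9 without PL 1 h replicates 1 and 2. No furrow collagen was called there. For dpy-7 there were 26.8 and 29.3 CPM at 18 h, against 24.2 and 30.7 CPM at 6 h, with overlap (0.03 ± 1.28), while dpy-8 had 4.36 and 6.44 CPM at 18 h, against 1.42 and 0.997 CPM at 6 h, without overlap (2.16 ± 0.84, edgeR adjusted p = 0.14). The squat collagen sqt-1 had 2.93 and 3.57 CPM at 18 h and no count at 6 h, and rol-6 2.07 and 2.46 CPM at 18 h and no count at 6 h, neither called. With RLE scaling 59.5% of all called genes were higher instead of 85.6%, and the median of all genes was -0.11 instead of 0.00. In PL 0 of 37 genes were called between 18 h and 6 h, against a background of 3.59%, with 4 at an unadjusted p under 0.05 (col-183, col-19, col-20 and col-80) and 2 called by DESeq2. The adult marker col-19 had 664 and 681 CPM at 18 h in PL, against 1636 and 1331 CPM at 6 h (-1.14 ± 0.43, edgeR adjusted p = 0.128). There the fit without PL 1 h replicates 1 and 2 called 6 collagens, and RLE scaling moved the share of higher calls among all genes to 20.5%, against 81.2% with TMM, and their median to -0.04 from 0.18.

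The change between 2 and 18 h in PL was set against that in N2 in a single test of the difference, added after the values had been seen, as were the comparisons of 6 with 2 h. The difference of PL minus N2 was negative for 18 of 37 genes, or 48.6%, against a background of 12.9% negative and 27.7% in either direction. By edgeR 0 were positive, with 0 at an unadjusted p under 0.05 and 0 by DESeq2. The 18 were 10 less abundant col- genes, 3 annulus collagens, 2 roller and squat collagens, 2 furrow collagens and sqt-3. For dpy-13 PL had 0.171 and 0 CPM at 18 h and 178 and 19.8 CPM at 2 h, while N2 had 2.15 and 2.32 CPM at 18 h and 0.0542 and 0 CPM at 2 h. The fitted difference was -15.87 ± 4.13 on the log2 scale, resting on 1 count in N2 at 2 h and 2 in PL at 18 h (edgeR adjusted p = 0.00889). For dpy-7 PL had 0.0856 and 0 CPM at 18 h and 2.36 and 0.52 CPM at 2 h, while N2 had 26.8 and 29.3 CPM at 18 h and 1.08 and 3.41 CPM at 2 h. That difference was -8.37 ± 2.64, resting on 1 count in PL at 18 h (edgeR adjusted p = 0.022). For col-144 PL had 5.3 and 4.06 CPM at 18 h and 63.3 and 24.2 CPM at 2 h, whereas N2 had 83.4 and 87.9 CPM at 18 h and 2.17 and 2.71 CPM at 2 h, a difference of -8.35 ± 1.52 (edgeR adjusted p = 0.00092). PL and N2 thus ran in opposite directions in this gene. The largest by the naming rule, col-145, dpy-5 and col-146, had a group at 0 counts, so their p-values are given without a fold (edgeR adjusted p = 0.00126, 0.0139 and 0.004). The same holds for sqt-1 and col-165 (edgeR adjusted p = 0.0391 and 0.0052), and rol-6 had a difference of -12.51 ± 4.13 on 3 counts in 2 of its groups together (edgeR adjusted p = 0.0295). The adult marker col-19 fell in both, and its changes did not differ by the test (0.23 ± 0.59, edgeR adjusted p = 0.814), nor did those of bli-1 (adjusted p = 0.323) and dpy-10 (adjusted p = 0.529). The count was 8 to 10 without PL DMSO 2 h replicate 1, PL DMSO 18 h replicate 1, PL DMSO 18 h replicate 2, N2 DMSO 2 h replicate 1 or N2 DMSO 18 h replicate 2, and 13 to 16 without each of the other 3 libraries. The calls of dpy-13, col-145 and col-146 held without any 1 library.

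In PF worms the less abundant collagens were mostly low. Between untreated PF and N2, 2 of 37 genes were higher, or 5.41%, against a background of 8.63%, and 1 was lower, or 2.70%, against a background of 25.8%, so both shares lay below the background. The abundant col-80 had 3155 and 3798 CPM in PF, against 1897 and 1293 CPM in N2 (1.12 ± 0.35, edgeR adjusted p = 0.0145), and col-19 had 2795 and 3368 CPM in PF, against 1428 and 1459 CPM in N2 (1.09 ± 0.42, edgeR adjusted p = 0.0473). The lower gene was col-165, with 0.405 and 0 CPM in PF against 0.881 and 5.78 CPM in N2, a ratio of 15.8 in favour of N2 with an interval of 5.27 to 77.8 on 3 PF counts (edgeR adjusted p = 0.0167). In none of the 3 genes did PF overlap N2. The count was 0 without N2 untreated replicate 2 or PF untreated replicate 2, 2 without PF untreated replicate 1 and 8 without PL 1 h replicates 1 and 2. For dpy-10 there were 0.27 and 0 CPM in PF, against 5.98 and 0.573 CPM in N2, without overlap or call (edgeR adjusted p = 0.129). The level of dpy-13 was 0.675 and 0.373 CPM in PF, against 0.252 and 0.458 CPM in N2. In PF there were 0.135 and 0.747 CPM of dpy-7 and 1.35 and 0.56 CPM of bli-1, against 0.692 and 0.229 CPM and 1.38 and 0.916 CPM in N2.

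Set against untreated PF, untreated PL had 2 of 37 genes higher, or 5.41%, against a background of 0.850% higher and 0.984% in either direction, and edgeR called 0 lower, with 1 at an unadjusted p under 0.05 and 0 by DESeq2. PL had 151 and 143 CPM of col-88, against 0 and 0.187 CPM in PF, a ratio of 1879 with an interval of 337 to 74241 on 1 PF count (edgeR adjusted p = 0.0432). For col-12, PL had 87.6 and 110 CPM, against 2.16 and 4.85 CPM in PF (log2 fold change 4.84 ± 1.20, edgeR adjusted p = 0.0476). PL was far above PF in both genes, but neither call held without any 1 of the 4 libraries. In both directions 23 genes had an unadjusted p under 0.05, and the fit without PL 1 h replicates 1 and 2 called 14. The annulus collagen dpy-13 had 240 and 167 CPM in PL, against 0.675 and 0.373 CPM in PF, and was not called (8.53 ± 2.50, edgeR adjusted p = 0.0985). The squat collagen sqt-1 had 38.3 and 27 CPM in PL and no count in PF, and was not called either. Untreated PL and N2 libraries are shared with the comparisons above, so the 3 untreated comparisons are not independent.

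In DMSO, PF and N2 were compared over 1, 2 and 6 h with hour as a factor, and 24 of the 37 genes passed the filter on low counts of those libraries. Since a gene could pass through the genotype in which it was high, the counts describe those 24 and support nothing further. Of the 24, 13 were higher in PF, or 54.2%, against a background of 36.4%, and 6 were lower, against a background of 37.7%. The abundant col-80 had 4679, 2971 and 2626 CPM in PF at 1, 2 and 6 h, against a range of 353 to 787 CPM over the 6 N2 libraries (2.53 ± 0.14, edgeR adjusted p = 1.87e-07). In PF col-106 had 4509, 2713 and 3500 CPM, against 429 to 861 CPM in N2 (2.39 ± 0.22). Likewise col-19 had 4317, 2664 and 2009 CPM in PF, against 372 to 944 CPM in N2 (2.18 ± 0.15, edgeR adjusted p = 6.14e-07). All PF libraries were above all N2 libraries in these 3 genes. The annulus collagen dpy-4 had 50.8, 1.62 and 1.35 CPM in PF, against 0 to 1.29 CPM in N2 (4.51 ± 0.82, edgeR adjusted p = 0.000631), with PF at 1 h standing out. For dpy-13 PF had 53, 0 and 0.301 CPM, so that its groups overlapped (4.20 ± 1.08, edgeR adjusted p = 0.00542).

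Of the 5 furrow collagens 4 were lower in PF over these hours and dpy-8 was higher. PF had 7.31, 3.62 and 1.88 CPM of dpy-8, against 0.924 to 2.44 CPM in N2, with overlap (1.20 ± 0.35, edgeR adjusted p = 0.0108). PF had no count of dpy-10 at 1, 2 or 6 h, against 3.81 to 73 CPM in N2, and was at least 313-fold lower, and dpy-3 was at least 102-fold lower on the same basis. For dpy-2, with 0.357, 0 and 0 CPM in PF, the ratio was 251 in favour of N2, with an interval of 69.4 to 2075 on 2 PF counts. For dpy-7, with 0, 0.374 and 0 CPM in PF against 0.557 to 30.7 CPM in N2, the ratio was 129, with an interval of 43.9 to 624 on 3 PF counts (edgeR adjusted p = 0.00105). PF also had no count of col-165 in DMSO at these hours and was at least 229-fold lower. The squat collagen sqt-1 had 3.57, 0 and 0 CPM in PF, against 0 to 1.1 CPM in N2 (2.12 ± 1.22, edgeR adjusted p = 0.167), and bli-1 had 0.178, 1.12 and 0.0752 CPM, against 0.186 to 3.86 CPM (-0.95 ± 1.20, edgeR adjusted p = 0.493). Both of those overlapped. The gene rol-6 did not pass the filter.

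PL and PF in DMSO were compared over 1, 2, 4 and 6 h, with 35 of the 37 genes past the filter. Here too a gene could pass through the genotype in which it was high, so the counts describe those 35 and support nothing further. Of the 35, 4 were higher in PL, or 11.4%, against a background of 5.06% higher and 8.81% in either direction. By edgeR 0 were lower, with 0 at an unadjusted p under 0.05 and 0 by DESeq2. The 4 were col-137, col-145, col-146 and col-161, with log2 fold changes of 5.37 ± 1.39 for col-145, 6.23 ± 1.52 for col-161 and 7.98 ± 1.95 for col-146 (edgeR adjusted p = 0.0399, 0.0338 and 0.0337), and a ratio of 996 for col-137, with an interval of 276 to 8229 on 2 PF counts. The libraries overlapped in all 4 genes. For col-145 PF had 11.1, 0, 0 and 0 CPM at 1, 2, 4 and 6 h, and the PL libraries at 4 and 6 h were at or below 0.302 CPM. The count was 12 without the 1 h libraries, among them dpy-13 and dpy-10, and 0 without those of 2, 4 or 6 h. With all hours dpy-10 had an adjusted p of 0.059 by edgeR. These comparisons use DMSO libraries that the PL and N2 comparisons use too.

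U0126 changed no collagen detectably in N2 up to 6 h. Of the 37 genes 0 were called at 1 h, against a background of 0.0243%, 0 at 2 h, against a background of 0.717%, and 0 at 6 h, against a background of 1.42%. At an unadjusted p under 0.05 there were 4, 2 and 0 genes, and DESeq2 called 0, 1 (col-17) and 0. At 1 h dpy-13 had 0.0796 and 9.22 CPM in U0126, against 0.0928 and 1.61 CPM in DMSO, and sqt-1 had 0 and 3.45 CPM in U0126, against 0.0928 and 1.1 CPM in DMSO. In both genes replicate 2 of each agent was the higher and the agents overlapped. At 1 h the same applied to bli-1, with 0.637 and 8.16 CPM in U0126 against 0.186 and 3.86 CPM in DMSO, and to rol-6, with 0 and 1.13 CPM in U0126 against 0 and 0.874 CPM in DMSO. At 2 h dpy-7 had 0.735 and 4.4 CPM in U0126, against 1.08 and 3.41 CPM in DMSO, and col-19 had 675 and 786 CPM in U0126, against 505 and 799 CPM in DMSO, both with overlap. At 6 h dpy-7 had 15.8 and 17.5 CPM in U0126, against 24.2 and 30.7 CPM in DMSO, dpy-10 had 32.4 and 37.3 CPM in U0126, against 53.1 and 73 CPM in DMSO, and col-165 had 36.5 and 37.3 CPM in U0126, against 54.1 and 54.7 CPM in DMSO. The U0126 libraries were the lower ones in all 3 genes, without overlap, and none passed the test. With RLE scaling 56.0% of all called genes at 6 h were higher, instead of 35.6%.

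At 18 h in U0126, N2 had 9 of 37 collagens lower, or 24.3%, against a background of 30.1% lower and 45.1% in either direction, so the share of lower genes was below the background. By edgeR 0 were higher, with 0 at an unadjusted p under 0.05 and 0 by DESeq2. The median log2 fold change was -2.04 for the 37 and -0.41 for all genes. With RLE scaling the medians were -1.83 and 0.00, 7 collagens were called lower, and 60.1% of all called genes were higher instead of 33.2%. The 9 genes were col-165, col-145, col-14, col-12, col-144, the furrow collagens dpy-2, dpy-7 and dpy-8, and dpy-17. By role these were 5 of 16 less abundant col- genes, 3 of 5 furrow collagens and 1 of the pair sqt-3 and dpy-17, and none of the annulus, roller, squat, strut or abundant genes.

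The largest fall was that of col-165, with 0.974 and 0.62 CPM in U0126 against 83.6 and 117 CPM in DMSO (means 0.797 ± 0.25 and 100 ± 23.8 CPM, n = 2 each). Its log2 fold change was -6.95 ± 1.02 (edgeR adjusted p = 8.43e-05). For col-145 there were 0.209 and 0.0517 CPM in U0126, against 5.01 and 7 CPM in DMSO (-5.32 ± 1.70, edgeR adjusted p = 0.0157), and for col-14 1.22 and 0.672 CPM in U0126, against 26.6 and 27 CPM in DMSO (-4.79 ± 1.65, edgeR adjusted p = 0.0217). All U0126 values of these genes lay below all DMSO values. Of dpy-7 there were 2.47 and 2.22 CPM in U0126, against 26.8 and 29.3 CPM in DMSO (-3.58 ± 1.43, edgeR adjusted p = 0.0438). The SQT-3 partner gene dpy-17 had 28.2 and 30.5 CPM in U0126, against 213 and 261 CPM in DMSO (-3.01 ± 0.58, edgeR adjusted p = 0.000322). The replicates of both genes were close together within each agent.

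Genes that missed the threshold included dpy-10, with 9.01 and 9.87 CPM in U0126 against 60.8 and 66.8 CPM in DMSO (-2.76 ± 1.38, edgeR adjusted p = 0.103). For sqt-1 there were 0.209 and 0 CPM in U0126, against 2.93 and 3.57 CPM in DMSO (-4.66 ± 2.85, adjusted p = 0.187), and for rol-6 0.452 and 0 CPM in U0126, against 2.07 and 2.46 CPM in DMSO (-3.13 ± 2.18, adjusted p = 0.242). These 3 genes did not overlap between agents. Levels of dpy-13 were 2.02 and 0 CPM in U0126, against 2.15 and 2.32 CPM in DMSO (adjusted p = 0.66), and bli-1 overlapped with 0.313 and 0.258 CPM in U0126, against 0.215 and 0.51 CPM in DMSO (adjusted p = 0.915). Levels of col-19 were 119 and 99.2 CPM in U0126, against 138 and 142 CPM in DMSO (-0.36 ± 0.42, edgeR adjusted p = 0.5). The summed level of the 31 genes was 94.5 and 94.1 CPM in U0126, against 818 and 984 CPM in DMSO, while that of the 6 abundant genes was 1935 and 1682 CPM in U0126, against 2013 and 1817 CPM in DMSO.

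The count of 9 was 4 without N2 DMSO 18 h replicate 1 (col-145, dpy-8, col-165 and dpy-17) and 2 without any 1 of the other 3 libraries (col-165 and dpy-17 each time), so the call of dpy-7 was lost without any 1 of the 4. Of 11 processing genes 2 were higher and 7 lower in U0126, with bli-3 at -1.16 ± 0.24 and bli-4 at 0.49 ± 0.12. Of 13 molting and matrix genes 3 were lower, and their mean log2(CPM + 1) was 3.01 and 3.15 in U0126, against 5.0 and 5.23 in DMSO. The transcription factor gene elt-3, which acts in the epidermis, was lower (-1.97 ± 0.20, edgeR adjusted p = 3.18e-07) and nhr-23 higher (1.14 ± 0.23), and 4 of 5 cuticlins were lower, cut-3 the most (-5.63 ± 0.59, edgeR adjusted p = 4.3e-07). Of the 109 other col- genes tested 2 were higher and 34 lower. Over all genes tested 30.1% were lower. The share of lower genes was near this for the other col- genes and below it for the molting list. It was above this for the processing genes and the cuticlins. Epidermal markers summed to 507 to 522 CPM in U0126, against 883 to 933 CPM in DMSO, with 3 of 6 lower. Muscle markers summed to 915 to 1000 CPM in U0126, against 2583 to 2839 CPM in DMSO, with 3 of 4 lower, and intestine markers to 14729 to 15312 CPM in U0126, against 22010 to 24362 CPM in DMSO, with 2 of 4 lower. Oocyte markers summed to 5494 to 5542 CPM in U0126, against 2783 to 2892 CPM in DMSO, with 0 of 6 called, and sperm markers to 0.982 to 2.71 CPM in U0126, against 0.0463 to 0.787 CPM in DMSO, where gsp-3, spe-11, ssp-16 and msd-1 were at 0. Their part in the collagen differences was not tested.

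**Figure D5:**
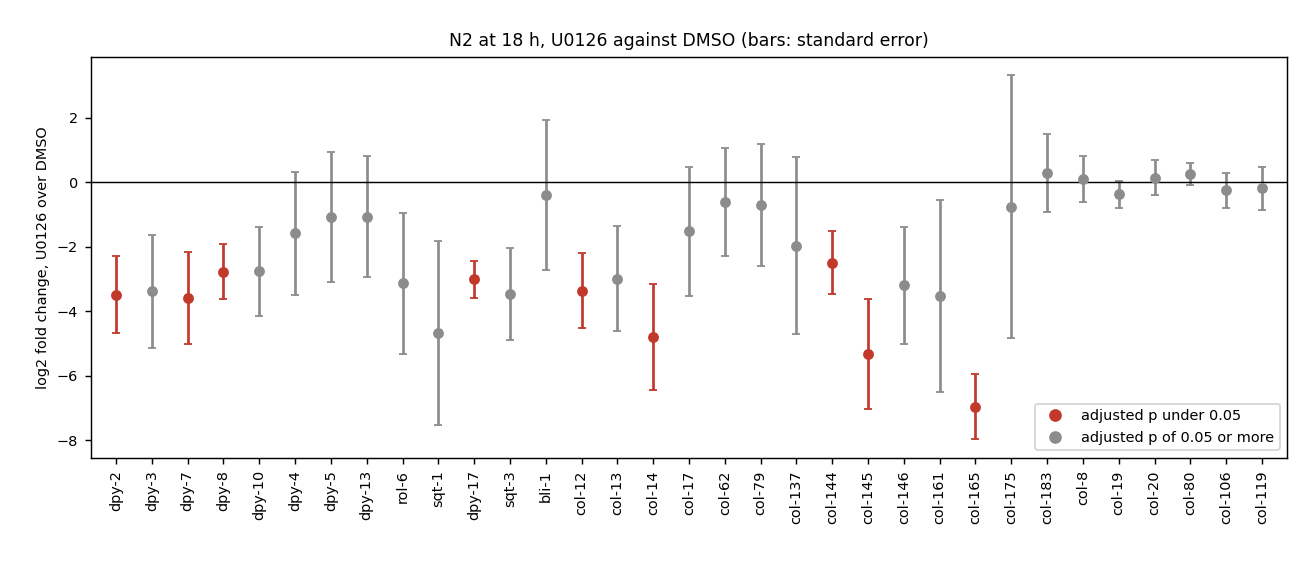
Log2 fold change of U0126 over DMSO in N2 at 18 h for 33 collagens, with bars of 1 standard error, and red points for an adjusted p under 0.05. The 9 red points run from -6.95 for col-165 to -2.49 for col-144, and 4 genes are not drawn because a group had 0 counts or both had 3 counts or fewer.

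PL and PF worms had no collagen called between U0126 and DMSO at any hour tested. In PL, 0 of 37 genes were called by edgeR at 1, 2, 4, 6 and 18 h, against backgrounds of 0.243%, 0.954%, 1.25%, 0.231% and 14.1%, with 0 at an unadjusted p under 0.05 at each of the 5 hours. DESeq2 called 0 at each hour except 6 h, where it called 1 (col-17). At 2 h sqt-1 had 41.9 and 0.0898 CPM in U0126, against 37 and 0.39 CPM in DMSO, and rol-6 had 18.7 and 0.18 CPM in U0126, against 18.4 and 0.52 CPM in DMSO. In both genes replicate 1 was high and replicate 2 low under both agents, and the sum of the 31 genes was 1409 and 128 CPM in U0126, against 1577 and 347 CPM in DMSO. At 4 h col-19 had 2099 and 2044 CPM in U0126, against 2484 and 2676 CPM in DMSO, and at 6 h 1731 and 1320 CPM in U0126, against 1636 and 1331 CPM in DMSO. At 18 h dpy-10 had 2.64 and 0.866 CPM in U0126, against 3.59 and 3.14 CPM in DMSO, and dpy-17 had 5.09 and 3.61 CPM in U0126, against 10.1 and 8.31 CPM in DMSO. The mean of col-19 was 527 ± 51.4 CPM in U0126, against 672 ± 12 CPM in DMSO (n = 2 each). At 18 h the U0126 values of these 3 genes were all below the DMSO values, and none passed the test. Of the 3, dpy-17 is not a gene that the naming rule picks in this comparison. The reference collagen bli-1 overlapped at 18 h, with 0.916 and 0.505 CPM in U0126 against 0.513 and 0.912 CPM in DMSO. By then dpy-7, dpy-13 and col-165 were near or at 0 counts in PL under both agents. For dpy-7 and col-165 a fall like that of N2 was therefore not detectable in PL, while dpy-13 had no called fall in N2. With RLE scaling 69.1% of all called genes at 18 h were higher, instead of 80.6%.

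In PF, 17 of the 37 genes passed the filter, and 0 were called by edgeR over 1, 2, 4 and 6 h, against a background of 0.641%. At an unadjusted p under 0.05 there were 2, dpy-4 and col-13, and DESeq2 called 0. With no filter on low counts 5 genes were called lower (col-175, dpy-13, col-88, dpy-4 and rol-1), all of them high in the DMSO library at 1 h, and without the 6 h libraries dpy-4 was called lower. For dpy-13 that library had 53 CPM, against 0 CPM in U0126 at 1 h. In PF col-19 had 6047, 2617, 1751 and 1478 CPM in U0126 at 1, 2, 4 and 6 h, against 4317, 2664, 1610 and 2009 CPM in DMSO, so neither agent was higher throughout.

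The drug responses of PL and N2 were also tested against each other. No collagen differed at 6 h, against a background of 0.0668%, with 0 at an unadjusted p under 0.05 and 0 by DESeq2. At 18 h 0 differed, against a background of 1.75%, with 2 at an unadjusted p under 0.05 (dpy-17 with a difference of 1.92 on the log2 scale and dpy-2 with 4.32) and 0 by DESeq2. The fit without PL 1 h replicates 1 and 2 called 2, col-12 and dpy-2. The fall of col-165 in N2 has no counterpart to compare, since PL had no count of it at 18 h in either agent. The share of higher calls among all genes at 18 h was 12.5% with RLE scaling, against 91.7% with TMM, and at 6 h 1 of 10 called genes was higher with RLE scaling, against 4 of 11 with TMM. RLE scaling moved the median of all genes at 18 h to -0.23 from 0.30, and no collagen was called under either.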

How the data were processed

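Poly(A) RNA-seq counts of 52 whole-worm libraries were used. The deposited files give raw counts per gene for each library; the submitters' processing notes list CASAVA, TopHat, DESeq and the build ce10. No source used here states the counting tool or the strand setting. The 5 lines of unassigned reads were left out; reads in no feature made up 48.2% to 54.8% of all, over the 51 libraries whose file gives them. Depth was 5370270 to 35120700 counts. The 37 genes, the gene lists and the rule for named genes (8 fixed reference collagens, and the 3 largest rises and falls among called, non-overlapping collagens with a mean of at least 5 CPM) were chosen with earlier results of these data known.

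Genes with at least 1 CPM in at least 2 libraries (16462) were fitted in edgeR 4.0.16 (R 4.3.3) with TMM factors (0.767 to 1.287), a trended dispersion and the quasi-likelihood F test, with 1 coefficient for each of 29 groups and 23 residual degrees of freedom. PF groups in an agent hold 1 library, so 3 comparisons were fitted on their own libraries with hour as a factor. P-values were adjusted by Benjamini-Hochberg over all genes tested. Alternatives were RLE scaling, no filter, DESeq2 1.42.0, a replicate block, fits without libraries that stood apart and leaving out each library. Gene names and exon lengths come from the Ensembl annotation, whose build is not that of the files, so no coordinates are given. No 2 replicates agreed within sampling noise (lowest chi-square per degree of freedom 2.69). Same-numbered PL 1 h libraries in U0126 and DMSO deviated together (r of 0.784, 0.841 and 0.909). Replicates 1 and 2 also did so across numbers (r of 0.698 and 0.745). The check thus mainly sets replicates 1 and 2 apart from replicate 3, and whether 1 and 2 pair samples cannot be told. At PL 1 h the block called 0 collagens, as the unblocked test did. The scripts were tested on simulated data.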

Additional observations from a re-analysis of the deposited data

Results flagged for a closer look

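The change between 2 and 18 h in DMSO differed between PL and N2 for 18 collagens by edgeR's test of the difference. This test was added after the values had been seen, so its adjusted p-values describe the pattern and are not independent evidence for it. The number of calls was lower whichever library of these groups was left out, as given above. For genes known by a col- number the adjusted p was 0.000682 for col-12, 0.00092 for col-144, 0.00126 for col-145, 0.00145 for col-14, 0.004 for col-146, 0.0052 for col-165, 0.0122 for col-161, 0.021 for col-17, 0.0296 for col-13 and 0.0465 for col-137. For annulus collagens it was 0.00889 for dpy-13, 0.0139 for dpy-5 and 0.0199 for dpy-4. It was 0.0295 for rol-6, 0.0391 for sqt-1, 0.0241 for sqt-3, 0.00926 for dpy-2 and 0.022 for dpy-7. For col-165 the difference comes from N2, where it was 83.6 and 117 CPM at 18 h, since PL had at most 3 counts at either hour.

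At 2 h in DMSO every PL library of col-144 lay above every N2 library, with a mean of 43.7 CPM in PL against 2.44 CPM in N2. At 6 h every PL library lay below every N2 library, with 4.9 and 4.35 CPM in PL against 6.53 and 5.33 CPM in N2. The difference between these hours was not tested.

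The strut collagens bli-1 and bli-2 and the 6 abundant genes were not among the 18.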

How the results depend on the processing

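Numbers are of collagens called by the test. Without PL 1 h replicates 1 and 2, whose libraries enter the shared spread, counts were 8 for PF against N2 untreated, 14 for PL against PF untreated, 9 for N2 at 18 h against 6 h, 6 for PL at 18 h against 6 h, 2 for the difference of drug responses at 18 h, 8 for N2 at 6 h against 2 h and 15 for PL at 6 h against 2 h. The fit without N2 untreated replicate 2 gave 0 for PF against N2 untreated, 8 for PL against PF untreated, 2 for PL at 18 h against 6 h and 9 for PL at 6 h against 2 h. DESeq2 gave 1 for U0126 in N2 at 2 h, 1 for U0126 in PL at 6 h, 7 for PL against PF untreated, 8 for PL against PF in DMSO, 7 for N2 and 2 for PL at 18 h against 6 h, and 4 for N2 and 13 for PL at 6 h against 2 h. With no filter on low counts there were 5 for U0126 in PF, 13 for PL against PF untreated and 14 for PL at 6 h against 2 h, and RLE scaling gave 1 for PL against PF untreated. The replicate block gave 0 for PL against PF untreated and 3 for PL at 6 h against 2 h. It moved no other count by over 1.5 times. Outside PL 1 h the numbers pair at most 2 libraries per group, with r of 0.395 to 0.528 for U0126 in N2 at 1 and 2 h and in PL at 2 and 18 h and -0.069 to 0.178 elsewhere, so whether the numbers pair samples cannot be told.

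Leaving out 1 library or hour gave 2 to 4 for U0126 in N2 at 18 h, 0 to 1 for U0126 in PF, 15 to 21 for PL against N2 untreated, 0 to 3 for PF against N2 untreated, 0 to 0 for PL against PF untreated, and 19 to 28, 11 to 12 and 11 to 14 for PL against N2 in DMSO at 2, 6 and 18 h. It gave 0 to 12 for PL against PF in DMSO, 18 to 19 for PF against N2 in DMSO, 0 to 0 for 18 h against 6 h in N2 and in PL, 1 to 2 for N2 and 0 to 2 for PL at 6 h against 2 h, and 8 to 16 for the difference of changes between 2 and 18 h. It gave 0 to 0 for U0126 in N2 at 1, 2 and 6 h, in PL at every hour and for both differences of drug responses. Where a group is left with 1 library, it is assumed to vary like the others.

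Of the collagens called lower in untreated PL against N2, col-183 changed sign without N2 untreated replicate 2, with a fitted log2 fold change of 1.69 on 1 count in all and no call, and its values ran from -6.58 to 1.69 without 1 library. No other called collagen changed sign. Each call was checked once per other setting or fit. Of these checks, 801 of 835 held over the other settings, and 428 of 651 over fits leaving out 1 library or hour. With 2 libraries in most groups and many collagens at a few counts, a fall from a level near 3 counts is not detectable.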
